A study of Mus musculus with 15 samples.

Results

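*Tubb3* encodes the class III beta tubulin, the isotype known as a marker of neurons, and was described in erythro-myeloid progenitors (EMPs) together with 9 other tubulin genes. The 10 genes, *Tubb3*, *Tubb2a*, *Tubb2b*, *Tubb4a*, *Tubb4b*, *Tubb5*, *Tubb6*, *Tuba1a*, *Tuba1b* and *Tuba1c*, are among the 17454 genes of the deposited table and all had values there. They were selected on measured values, since *Tubb3* was chosen from the contrast of Tie2-Ezh2-KO with WT EMPs and the others as its isotypes. In that contrast the values of the 10 genes are therefore given without a test.

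EMPs arise from endothelium of the yolk sac (YS) and give rise to erythroid and myeloid cells. RNA of E10.5 YS EMPs from C57BL/6 mice, sorted as cells positive for KIT, CD41 and CD16/32 and negative for lineage markers and SCA1, was sequenced in 15 libraries, each from an individual YS. All mice carried *Ezh2*fl/fl, and *Ezh2* encodes the histone methyltransferase of Polycomb repressive complex 2. The 5 Tie2-Ezh2-KO libraries also carried 1 copy of *Tie2*-Cre, which deletes in endothelium and hence in the blood cells derived from it. The 5 Vav-Ezh2-KO libraries carried 1 copy of *Vav*-Cre, which deletes once blood cells have formed. The controls had no Cre and came from both crosses, as 3 Tie2-Ezh2-WT and 2 Vav-Ezh2-WT libraries, and the 5 together are called WT. The libraries come from several experiments that the labels do not assign, so the Cre line and the experiment cannot be told apart. Levels are RPKM, reads of a gene scaled to its length and to the depth of the library.

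Microtubules are polymers of paired alpha and beta tubulin. Vertebrates carry several genes for each, whose proteins differ mostly in the short tail that motors, other associated proteins and modifying enzymes bind. Cells hold their tubulin mRNAs in balance with free tubulin protein, and dividing progenitors need large amounts of it for the spindle.

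Low RPKM values were whole multiples of the value of 1 read, so that reads could be recovered. Tie2-Ezh2-WT replicates 4, 10 and 12 held 10407398, 15811738 and 41025074 reads on genes. The totals were 14890780 and 19957939 for Vav-Ezh2-WT replicates 4 and 6. Tie2-Ezh2-KO libraries held 14818723 to 26825709 reads and Vav-Ezh2-KO libraries 11506895 to 28714656. For *Tubb3*, 1 read was worth 0.0141 RPKM in the deepest library and 0.0558 RPKM in the shallowest. Because of PCR during library preparation, reads cannot be taken as independent molecules.

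The labels were first compared with *Ezh2*, on chromosome 6 of GRCm38 from 47530274 to 47595270. Its level was 38.0 ± 4.84 RPKM (SD, n = 5) in WT, 27.0 ± 1.78 (SD, n = 5) RPKM in Tie2-Ezh2-KO and 37.2 ± 3.56 (SD, n = 5) RPKM in Vav-Ezh2-KO EMPs. All 5 Tie2-Ezh2-KO libraries, at most 29.5 RPKM, lay below the lowest WT library at 30.1 RPKM, whereas Vav-Ezh2-KO and WT overlapped. On the log2(RPKM + 0.2) scale *Ezh2* fell by 0.48 in Tie2-Ezh2-KO (standard error 0.12, limma adjusted p = 0.0418) and changed by -0.02 in Vav-Ezh2-KO (standard error 0.11, limma adjusted p = 0.969). Reads from exons that the Cre leaves in place still count toward *Ezh2*, so its level checks the labels only in part. The call in Tie2-Ezh2-KO was kept in 9 of 19 alternative analyses. It was lost without Tie2-Ezh2-WT replicate 4 or 10, Vav-Ezh2-WT replicate 4 or 6, or Tie2-Ezh2-KO replicate 7, 11 or 17 (limma adjusted p from 0.0760 to 0.126). It was also lost after scaling to a common median (change -0.32, limma adjusted p = 0.226), against Tie2-Ezh2-WT alone (-0.39, limma adjusted p = 0.344) and with limma-voom on recovered reads (-0.46, limma adjusted p = 0.0817). All 9 genes of the EMP marker list, *Kit*, *Itga2b*, *Fcgr3*, *Fcgr2b*, *Runx1*, *Gata1*, *Gata2*, *Myb* and *Ptprc*, averaged above 1 RPKM. With limma, 0 of the 9 passed the threshold in Tie2-Ezh2-KO, where 3 had an unadjusted p under 0.05 and the median change was -0.20. The 3 were all lower, *Fcgr2b* by -0.65, *Fcgr3* by -0.47 and *Ptprc* by -0.80 (limma adjusted p = 0.131, 0.131 and 0.322). Over all genes of this contrast, 1552 of 14154 had an unadjusted p under 0.05, and the median change was 0.011.

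*Tubb3* lies on chromosome 8 from 123411553 to 123422015. It was measured at 0.167, 0.220 and 0.750 RPKM in Tie2-Ezh2-WT replicates 4, 10 and 12, from 3, 6 and 53 reads. It was measured at 1.40 and 1.19 RPKM in Vav-Ezh2-WT replicates 4 and 6, from 36 and 41 reads. The 2 sets of controls therefore did not overlap for this gene, and the deepest Tie2-Ezh2-WT library stood highest of its group. Tie2-Ezh2-KO replicates 7, 9, 11, 13 and 17 had 2.73, 1.86, 2.47, 3.98 and 2.20 RPKM, from 75, 49, 63, 184 and 61 reads. Vav-Ezh2-KO replicates 1, 9, 10, 26 and 28 had 0.205, 0.504, 0.275, 0.504 and 0.344 RPKM, from 10, 16, 8, 10 and 17 reads. Every Tie2-Ezh2-KO library was above every other library, and the Vav-Ezh2-KO libraries fell within the range of Tie2-Ezh2-WT. The share of all genes that separate groups in this way was not counted, so nothing is read from this or later separations. In bulk EMPs, fewer cells with the transcript and less transcript per cell cannot be told apart.

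The mean of *Tubb3* was 2.65 ± 0.812 (SD, n = 5) RPKM in Tie2-Ezh2-KO and 0.747 ± 0.557 RPKM (SD, n = 5) in WT EMPs, a ratio of 3.55. Against Tie2-Ezh2-WT alone the ratio was 6.99, and against Vav-Ezh2-WT alone it was 2.04. On the log2(RPKM + 0.2) scale *Tubb3* rose by 1.79 from WT (standard error 0.42), where the added 0.2 RPKM shrinks changes between low values. It lay between 1.10 and 2.39 in the 19 alternative analyses of this contrast. These values chose the gene and are a description.

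**Figure D1:**
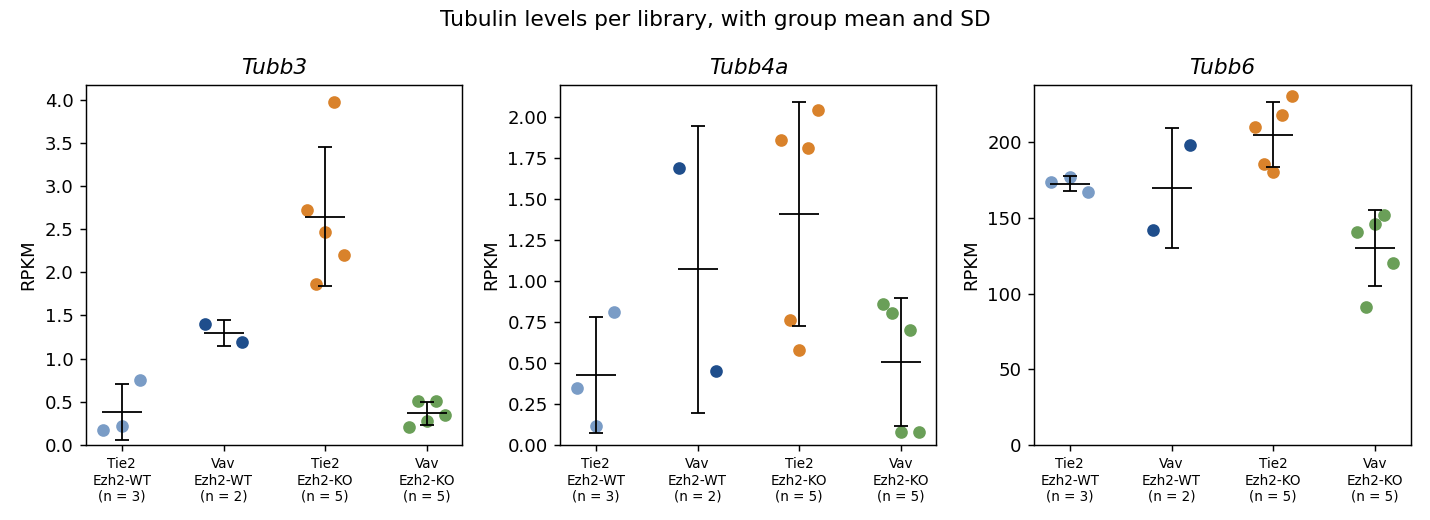
RPKM (vertical axis, linear, from 0) of *Tubb3*, *Tubb4a* and *Tubb6* in each of 15 libraries, by group along the horizontal axis. Each point is 1 library, the wide bar is the group mean and the whiskers are 1 SD. The 5 Tie2-Ezh2-KO libraries lie between 1.86 and 3.98 RPKM for *Tubb3*, above all other libraries, while for *Tubb4a* the groups overlap.

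In this contrast, 386 of 14154 genes tested, or 2.73%, passed an adjusted p of 0.05 in Tie2-Ezh2-KO against WT, 343 of them higher (2.42% of those tested) and 43 lower. All 10 tubulin genes were above 0.2 RPKM in at least 1 library and entered this fit. Since the contrast served to choose *Tubb3*, no outcome of the test is given for them. With each library scaled to a common median, the median change of all genes was 0.159 in place of 0.011, and changes of the tubulins below are to be read against this shift.

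*Vav*-Cre deletion gave a contrast that the choice of genes did not use, although it shares the WT libraries. There 1 of 13646 genes tested, or 0.00733%, was called with limma, 1082 genes had an unadjusted p under 0.05, and none of the 10 tubulins was called. *Tubb3* averaged 0.367 ± 0.135 (SD, n = 5) RPKM in Vav-Ezh2-KO against 0.747 ± 0.557 RPKM (SD, n = 5) in WT. Its change was -0.53 (standard error 0.41, limma adjusted p = 0.771), less than the spread between libraries could resolve. The 5 Vav-Ezh2-KO libraries were all below both Vav-Ezh2-WT libraries, at 0.283 of their mean. Against those 2 controls alone the change was -1.43 with a limma adjusted p of 0.862, and over all alternatives the adjusted p ranged from 0.713 to 0.906. Whether the effects of the 2 knockouts on *Tubb3* differ was not tested, because the gene was selected on one of them.

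The controls of the 2 crosses were then compared with each other in a fit of all 15 libraries. This fit includes the libraries of the contrast from which *Tubb3* was chosen. Only 2 of 14394 genes tested, or 0.0139%, were called, and 871 had an unadjusted p under 0.05. *Tubb3* was 1.50 higher on the log2 scale in Vav-Ezh2-WT than in Tie2-Ezh2-WT EMPs (standard error 0.44), with an unadjusted p of 0.00315 and a limma adjusted p of 0.503. It was above all 3 Tie2-Ezh2-WT libraries in both Vav-Ezh2-WT libraries, and it did not pass the threshold in any of 22 alternative analyses. No tubulin gene passed it in this comparison.

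Among the beta isotypes, *Tubb5* and *Tubb4b* are the broadly expressed forms, and they made up most of the beta tubulin mRNA of EMPs. *Tubb5* averaged 423 ± 107 RPKM (SD, n = 5) in WT, 418 ± 48.1 (SD, n = 5) RPKM in Tie2-Ezh2-KO and 416 ± 64.4 (SD, n = 5) RPKM in Vav-Ezh2-KO EMPs. Its widest spread was among the controls, with 577, 436 and 278 RPKM for Tie2-Ezh2-WT replicates 4, 10 and 12. *Tubb4b* averaged 439 ± 38.6 RPKM (SD, n = 5) in WT, 409 ± 65.1 (SD, n = 5) RPKM in Tie2-Ezh2-KO and 497 ± 48.7 (SD, n = 5) RPKM in Vav-Ezh2-KO EMPs. The groups overlapped with WT for both genes, and the log2 changes in Tie2-Ezh2-KO were 0.01 (standard error 0.16) for *Tubb5* and -0.11 (standard error 0.12) for *Tubb4b*. Scaling to a common median turned *Tubb4b* to 0.05, while *Tubb5* lay between -0.13 without Tie2-Ezh2-WT replicate 12 and 0.18 after that scaling.

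*Tubb6*, a beta isotype found in many non-neuronal tissues, was the next beta isotype in level. In Tie2-Ezh2-WT replicates 4, 10 and 12 it reached 174, 177 and 167 RPKM, against 142 and 198 RPKM for Vav-Ezh2-WT replicates 4 and 6. Tie2-Ezh2-KO replicates 7, 9, 11, 13 and 17 had 210.4, 186, 180.2, 218 and 231 RPKM. Vav-Ezh2-KO replicates 1, 9, 10, 26 and 28 had 141, 90.9, 146, 152 and 120.4 RPKM. The 2 knockouts did not overlap, Tie2-Ezh2-KO being above and Vav-Ezh2-KO below all 3 Tie2-Ezh2-WT libraries, while both overlapped with the Vav-Ezh2-WT libraries. The change in Tie2-Ezh2-KO was 0.26 (standard error 0.11), between 0.19 and 0.42 in the alternatives. In Vav-Ezh2-KO it was -0.42 (standard error 0.13), with an unadjusted p of 0.00691 and a limma adjusted p of 0.542, so it did not pass.

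*Tubb2a* and *Tubb2b* are neighbours on chromosome 13, from 34074278 to 34078008 and from 34127008 to 34130354, and are abundant in the developing brain. *Tubb2a* ranged from 12.5 to 18.8 RPKM in WT, from 6.73 to 19.3 RPKM in Tie2-Ezh2-KO and from 14.4 to 20.7 RPKM in Vav-Ezh2-KO EMPs. *Tubb2b* ranged from 2.07 to 4.05, from 1.43 to 4.21 and from 2.94 to 3.93 RPKM in the same order. Both were lowest in Tie2-Ezh2-KO replicate 9, and the ratio of *Tubb2a* to *Tubb2b* stayed between 4.02 and 6.05 in the 15 libraries. Their changes in Tie2-Ezh2-KO were -0.10 (standard error 0.25) and -0.13 (standard error 0.29), and they turned to 0.06 and 0.02 after scaling to a common median and to 0.18 and 0.11 without Tie2-Ezh2-KO replicate 9.

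*Tubb4a*, which is mainly expressed in brain, had the lowest mean of the 10 over the 15 libraries, although *Tubb3* had the lower mean in Tie2-Ezh2-WT and in Vav-Ezh2-KO EMPs. Its level was 0.345, 0.114 and 0.810 RPKM in Tie2-Ezh2-WT replicates 4, 10 and 12, from 8, 4 and 74 reads, and 1.69 and 0.450 RPKM in Vav-Ezh2-WT replicates 4 and 6, from 56 and 20 reads. Tie2-Ezh2-KO replicates 7, 9, 11, 13 and 17 had 1.86, 0.764, 0.575, 1.81 and 2.04 RPKM. Vav-Ezh2-KO replicates 1, 9, 10, 26 and 28 had 0.858, 0.804, 0.0799, 0.702 and 0.0782 RPKM. In 3 of 5 Tie2-Ezh2-KO libraries *Tubb4a* was above every WT library, and the other two lay inside the WT range. The log2 change in Tie2-Ezh2-KO was 1.01 (standard error 0.46), from 0.54 with a pseudocount of 1 to 1.40 against Tie2-Ezh2-WT alone. It was -0.30 (standard error 0.51, limma adjusted p = 0.906) in Vav-Ezh2-KO EMPs.

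The 3 alpha genes *Tuba1a*, *Tuba1b* and *Tuba1c* lie together on chromosome 15, between 98931429 and 99038105, and encode nearly identical proteins. *Tuba1b* was the most abundant tubulin in every library, at 882 to 918 RPKM in Tie2-Ezh2-WT, 1106 and 1263 RPKM in Vav-Ezh2-WT, 794 to 1083 RPKM in Tie2-Ezh2-KO and 1053 to 1250.4 RPKM in Vav-Ezh2-KO EMPs. *Tuba1a* and *Tuba1c* were lower, at 209 to 341 RPKM and 293 to 498 RPKM over the 15 libraries, and showed the same order of groups. For each of the 3 genes, every library of the *Vav* cross, control or knockout, was above every Tie2-Ezh2-WT library. The share of all genes with this order was not counted. Reads of the 3 genes cannot be fully told apart, as described below, so they are not 3 separate observations. Vav-Ezh2-WT exceeded Tie2-Ezh2-WT by 0.42 for *Tuba1a*, 0.40 for *Tuba1b* and 0.51 for *Tuba1c* on the log2 scale (standard errors 0.13, 0.14 and 0.14), with limma adjusted p of 0.620, 0.692 and 0.461. For the 3 genes in the same order, the mean of Vav-Ezh2-KO stood at 0.965, 0.951 and 0.943 of the mean of Vav-Ezh2-WT, with overlapping libraries. In Vav-Ezh2-KO against WT their changes were 0.20, 0.17 and 0.22 (standard errors 0.11, 0.11 and 0.12, limma adjusted p = 0.672, 0.709 and 0.672). In Tie2-Ezh2-KO against WT they were -0.12, -0.11 and -0.16 (standard errors 0.13, 0.13 and 0.14), but all 3 were 0.05 against Tie2-Ezh2-WT alone and 0.04, 0.05 and 0.01 after scaling to a common median.

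Ordered by mean RPKM over 15 libraries, the 10 genes ran from *Tuba1b* (1022 RPKM) over *Tubb4b* (448 RPKM), *Tubb5* (419 RPKM), *Tuba1c* (396 RPKM), *Tuba1a* (274 RPKM), *Tubb6* (169 RPKM), *Tubb2a* (16.1 RPKM), *Tubb2b* (3.26 RPKM) and *Tubb3* (1.25 RPKM) to *Tubb4a* (0.865 RPKM). *Tubb4b*, *Tubb5* and *Tuba1c* were not separated, since *Tubb4b* exceeded *Tubb5* in 9 of 15 libraries and *Tubb5* exceeded *Tuba1c* in 8 of 15. *Tubb3* exceeded *Tubb4a* in 9 of 15 libraries and was exceeded by *Tubb2b* in 13 of 15. All other neighbours kept their order in every library. *Tuba1b* stood at place 55 of the 17454 genes by this mean. *Tubb3* stood at place 9497, a place that describes no single group, since its group means ran from 0.367 to 2.65 RPKM.

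**Figure D2:**
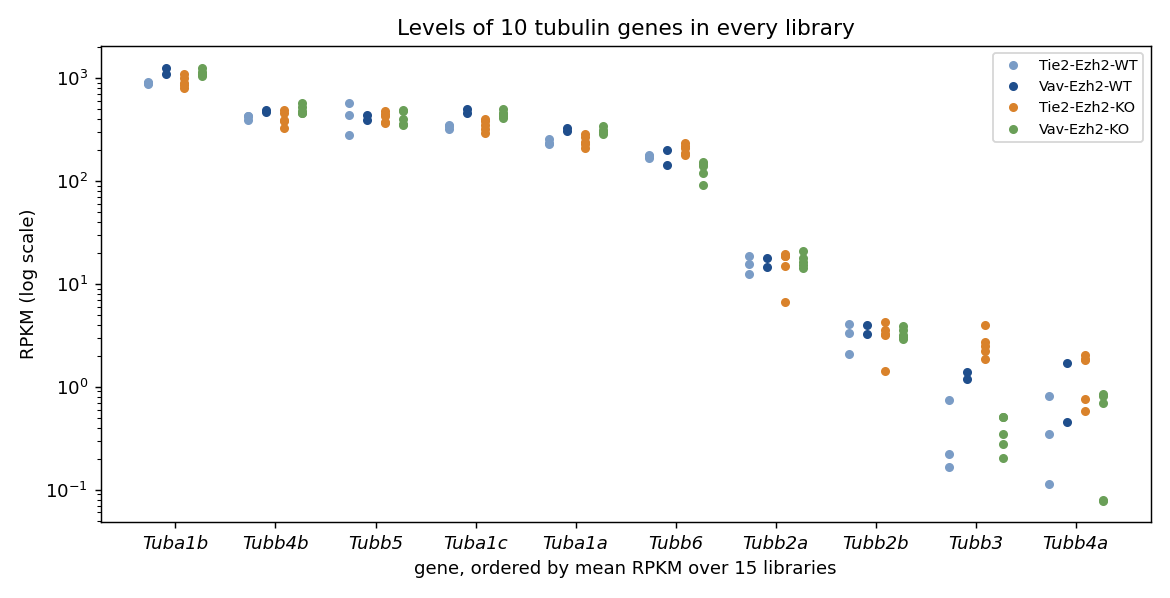
RPKM (vertical axis, log scale) of 10 tubulin genes, ordered along the horizontal axis by their mean over 15 libraries. Each point is 1 library, coloured by group. The genes span from 1022 RPKM for *Tuba1b* to 0.865 RPKM for *Tubb4a*.

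The composition of each class was taken as the share of a gene in the summed RPKM of 8 beta tubulin genes, the 7 above and *Tubb1*, or of 8 alpha tubulin genes. The beta total was 1063 ± 129 RPKM (SD, n = 5) in WT, 1061 ± 100.3 (SD, n = 5) RPKM in Tie2-Ezh2-KO and 1073 ± 96.5 (SD, n = 5) RPKM in Vav-Ezh2-KO EMPs. *Tubb3* was 0.0723 ± 0.0526% of it (SD, n = 5) in WT, 0.251 ± 0.0777% (SD, n = 5) in Tie2-Ezh2-KO and 0.0345 ± 0.0136% (SD, n = 5) in Vav-Ezh2-KO EMPs. Even in Tie2-Ezh2-KO replicate 13, where it was highest, its share was 0.374%, so the isotype remained a trace of the beta tubulin mRNA.

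In WT EMPs *Tubb4b* made up 41.6 ± 4.14%, *Tubb5* 39.3 ± 5.79% and *Tubb6* 16.3 ± 2.55% of the beta total (SD, n = 5 each). In Tie2-Ezh2-KO the shares were 38.4 ± 3.05%, 39.5 ± 3.85% and 19.4 ± 1.59%, and in Vav-Ezh2-KO 46.4 ± 3.39%, 38.7 ± 3.74% and 12.1 ± 2.15% (SD, n = 5 each). Between Vav-Ezh2-KO and WT, the share of *Tubb6* differed by -4.22 percentage points and was below all WT libraries in 4 of 5 Vav-Ezh2-KO libraries (two-sided exact permutation test over 252 divisions, p = 0.0317, adjusted p = 0.508 over 16 isotypes). The share of *Tubb4b* differed by 4.78 points (exact permutation p = 0.0952, adjusted p = 0.762) and that of *Tubb3* by -0.0378 points (exact permutation p = 0.175, adjusted p = 0.787). The smallest p that 252 divisions can give is 0.00794, which for 1 isotype alone would be 0.127 after adjustment over 16, so this test could hardly pass the threshold and its outcome does not show that the shares were alike.

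The alpha total was 1709 ± 42.2 RPKM (SD, n = 3) in Tie2-Ezh2-WT and 2299 ± 166 RPKM (SD, n = 2) in Vav-Ezh2-WT, with 1805 ± 210.1 (SD, n = 5) RPKM in Tie2-Ezh2-KO and 2195 ± 150.3 (SD, n = 5) RPKM in Vav-Ezh2-KO EMPs. Inside it the shares of the 3 genes in WT and Vav-Ezh2-KO overlapped. *Tuba1b* made up 52.0 ± 1.07% (SD, n = 5) of it in WT against 51.3 ± 0.733% (SD, n = 5) for Vav-Ezh2-KO, *Tuba1c* 20.0 ± 0.752% and 20.4 ± 0.249%, and *Tuba1a* 13.8 ± 0.500% and 13.9 ± 0.146% (SD, n = 5 each). Outside the 10 genes, *Tuba4a* averaged 165 RPKM over the 15 libraries.

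How far reads of these genes can be told apart bears on every level above, because reads of 75 bases were kept with 1 alignment each. In the reference transcript of *Tubb3*, 0 of 1794 windows of 75 bases occur in a transcript of another gene, and 20 windows, or 1.1%, come within 2 mismatches of one, which was *Tubb6* in each case. *Tubb4a*, *Tubb5* and *Tubb6* were as distinct, with 0.1%, 0.6% and 1.2% of windows within 2 mismatches elsewhere. By contrast, 71.9% of windows of *Tuba1b*, 68.2% of *Tuba1a* and 56.7% of *Tuba1c* occur unchanged in another gene's transcript, as do 43.2% of *Tubb2a*, 32.2% of *Tubb2b* and 37.8% of *Tubb4b*. For *Tubb2a* and *Tubb2b* most such windows are shared between the pair, for *Tubb4b* they occur at loci outside the 10 genes, and for the alpha genes in each other and at such loci. Within 2 mismatches the shares were 77.1% for *Tuba1b*, 77.2% for *Tuba1a* and 66.1% for *Tuba1c*. They were 55.7% for *Tubb2a*, 52.5% for *Tubb2b* and 75.6% for *Tubb4b*. The levels of these 6 genes, and the steady ratio of *Tuba1b* to *Tuba1a* (3.62 to 3.90 in 15 libraries), are uncertain to that extent.

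**Figure D3:**
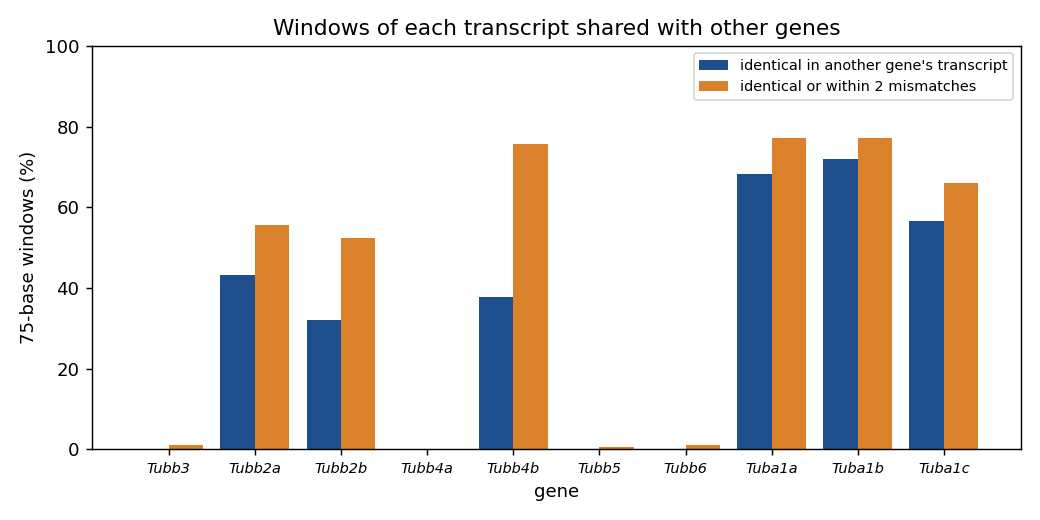
Share in percent (vertical axis) of all 75-base windows of each gene's reference transcript (horizontal axis) that occur in a transcript of another gene, identical (blue bars) or identical or within 2 mismatches (orange bars). *Tubb3* has no identical window and 1.1% within 2 mismatches, while *Tuba1b* has 71.9% identical.

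The coding bases of *Tubb3* were compared with those of 5 other beta isotypes in the GENCODE M21 transcripts. Aligned from the start codon without gaps, *Tubb3* matched *Tubb2b* at 84.2%, *Tubb2a* at 83.9%, *Tubb4a* at 83.0%, *Tubb4b* at 82.7% and *Tubb5* at 82.1% of coding positions. *Tubb6*, the gene with the 20 windows within 2 mismatches of *Tubb3*, was not part of this comparison.

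RefSeq promoters, 300 bases around the start of each gene on GRCm38.p6, were matched for 8 of the 10 genes. The promoter of *Tubb3* holds 26 CG pairs, a count reached by 16.9% of 32851 promoters, whose median is 7. CG reads the same on both strands and cannot overlap itself. *Tuba1b* (39), *Tubb2a* (25), *Tubb5* (20), *Tubb4a* (19), *Tubb4b* (16) and *Tuba1a* (16) also exceeded the median and *Tuba1c* (7) equalled it.

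Within 100 kb of *Tubb3* the annotation lists *Fanca*, *Spire2*, *Tcf25*, *Mc1r*, *Def8*, *Gm39275*, *Afg3l1*, *Dbndd1* and *Gas8*. The nearest is *Mc1r*, which ends 809 bases before *Tubb3*. *Mc1r*, the melanocortin receptor gene, averaged 0.0455 RPKM in WT, 0.0310 RPKM in Tie2-Ezh2-KO EMPs, and was too low to test. None of the 7 neighbours tested passed the threshold in Tie2-Ezh2-KO against WT, and their changes ran from -0.31 for *Def8* (limma adjusted p = 0.873) to 1.15 for *Spire2* (limma adjusted p = 0.452). Over all genes of this contrast 2.73% were called, so nothing is read from a count over 7 genes.

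The genes whose log2(RPKM + 0.2) was most like that of *Tubb3* over the 15 libraries, among 11687 genes above 0.2 RPKM in at least 8 libraries, were *Tpm2* (a tropomyosin), *Tle6* (a Groucho-family corepressor), *Nkd1* (an inhibitor of Wnt signaling), *Galnt12* (a glycosyltransferase), *H2afy2* (a macroH2A histone), *Nrtn* (the neurotrophic factor neurturin), *Fermt2* (a kindlin) and *Pard6b* (a polarity protein). Pearson r lay between 0.85 and 0.89 and Spearman rho between 0.81 and 0.91 over 15 libraries. The likeness is a description, since the libraries fall into groups that differ for *Tubb3*. For example, *Nrtn* averaged 8.82 RPKM in Tie2-Ezh2-KO, 1.30 RPKM in Tie2-Ezh2-WT, 1.71 RPKM in Vav-Ezh2-WT and 1.67 RPKM in Vav-Ezh2-KO EMPs. Among the 9 other genes of the 10 tubulins, *Tubb4a* (r = 0.72, rho = 0.62) and *Tubb6* (r = 0.59, rho = 0.66) came nearest, and the remaining ones had r from -0.37 to -0.10.

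The proteins that fold, nucleate, modify and bind tubulin were followed through 5 lists. Of 21 genes for tubulin folding and level control, which include the CCT chaperonin, prefoldin and the cofactors that pair alpha with beta tubulin, all 21 were tested and 0 were called in Tie2-Ezh2-KO with limma, 0 having an unadjusted p under 0.05, with a median change of 0.03. Over all genes 2.73% were called, 1552 of 14154 had an unadjusted p under 0.05 and the median change was 0.011. *Cct5* was the most abundant at 942 RPKM, and *Ttc5*, which triggers the decay of tubulin mRNA when free tubulin is in excess, had 30.0 ± 2.79 RPKM (SD, n = 5) in WT, against 30.4 ± 4.30 (SD, n = 5) RPKM in Tie2-Ezh2-KO EMPs. Of the 12 genes for gamma, delta and epsilon tubulin and the ring complex, which nucleates microtubules, 0 of 12 were called or had an unadjusted p under 0.05, and the median change was 0.01, *Tubg1* being the most abundant at 101 RPKM. Of the 6 other alpha and beta tubulins 5 were tested and 0 called with limma, 1 with an unadjusted p under 0.05, with a median change of -0.18. Of the 5, 1 exceeded 0.2 RPKM in Tie2-Ezh2-KO but in no WT library. The gene with the unadjusted p under 0.05 was *Tuba8*, with a change of 0.34 (standard error 0.11, limma adjusted p = 0.151) that did not pass. It had 132 to 164 RPKM in Tie2-Ezh2-KO, and at most 129 RPKM in WT and 126 RPKM in Vav-Ezh2-KO EMPs.

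Of 23 genes for tubulin modification, 22 had values, 19 were tested and 1 was higher in Tie2-Ezh2-KO, beside 2.42% of all genes tested, with a median of 0.07. It was *Vash2*, which encodes a tubulin carboxypeptidase that removes the terminal tyrosine of alpha tubulin, at 0.658 ± 0.327 (SD, n = 5) RPKM in Tie2-Ezh2-KO and 0.0851 ± 0.136 RPKM (SD, n = 5) in WT EMPs, where 3 of 5 libraries were at 0. It rose by 1.60 (standard error 0.37, limma adjusted p = 0.0317), a call kept in 8 of 19 alternatives and ended by leaving out any of the 10 libraries but Vav-Ezh2-WT replicate 6 and Tie2-Ezh2-KO replicate 9 (limma adjusted p from 0.0524 to 0.0919). The call also ended without a filter on low values, with quantile normalization and against Tie2-Ezh2-WT alone (limma adjusted p = 0.0515, 0.0533 and 0.0639). The change of *Vash2* lay between 0.60 and 4.93 in the 19 alternatives. The most abundant gene of this list was *Ccdc23*, the partner of the vasohibins, at 72.7 RPKM.

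Of 28 microtubule-associated proteins, 26 had values, 19 were tested and 1 was higher in Tie2-Ezh2-KO, beside 2.42% of all genes tested, with a median of 0.15. Of the 19, 2 exceeded 0.2 RPKM in Tie2-Ezh2-KO but in no WT library, which favours higher values there, so nothing is read from the median. *Map1b*, a microtubule-binding protein of growing axons, had 2.45 ± 0.849 (SD, n = 5) RPKM in Tie2-Ezh2-KO and 0.144 ± 0.0837 RPKM (SD, n = 5) in WT EMPs. Its lowest Tie2-Ezh2-KO library, at 1.36 RPKM, was above the highest WT library at 0.235 RPKM. It rose by 2.92 (standard error 0.31, limma adjusted p = 1.18e-04), a call kept in all 19 alternatives, with changes between 1.56 and 4.54. In Vav-Ezh2-KO EMPs *Map1b* had 0.306 ± 0.214 RPKM (SD, n = 5). The most abundant gene of this list, *Stmn1*, which encodes the tubulin-sequestering protein stathmin, had 727 ± 71.9 RPKM (SD, n = 5) in WT, against 733 ± 127 (SD, n = 5) RPKM in Tie2-Ezh2-KO EMPs. In Vav-Ezh2-KO and between the controls, 0 genes of these 5 lists were called with limma. Over all genes tested 0.00733% and 0.0139% were called there, so nothing is read from this count.

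Since *Tubb3* marks neurons, the list of 21 neuron markers was read beside it. Of these, 15 had values, 8 were tested, 2 were higher in Tie2-Ezh2-KO and 0 were lower, with a median change of 0.43. Over all genes tested in this contrast, 2.42% were higher. Of the 8, 5 exceeded the 0.2 RPKM needed for a test in Tie2-Ezh2-KO libraries but in no WT library, *Isl1* and *Ncam1* among them, so the filter itself favoured higher values there, and nothing is read from the count, the direction or the median of this list. *Isl1*, a homeobox gene of motor and sensory neurons and also of other tissues, had 0.555 ± 0.261 (SD, n = 5) RPKM in Tie2-Ezh2-KO and 0.0195 ± 0.0278 RPKM (SD, n = 5) in WT EMPs and rose by 1.71 (standard error 0.29, limma adjusted p = 0.00432). *Ncam1*, a neural cell adhesion molecule, had 0.574 ± 0.207 (SD, n = 5) RPKM in Tie2-Ezh2-KO and 0.118 ± 0.0237 RPKM (SD, n = 5) in WT EMPs and rose by 1.25 (standard error 0.27, limma adjusted p = 0.0188). Without a filter on low values the limma adjusted p was 0.00485 for *Isl1* and 0.0102 for *Ncam1*. Both genes entered the main fit only through Tie2-Ezh2-KO libraries, from a list chosen with earlier results known, so their calls are a description. The call of *Isl1* was kept in all 19 alternatives, whereas that of *Ncam1* was lost without Tie2-Ezh2-WT replicate 12 (adjusted p = 0.0501) and with quantile normalization or Tie2-Ezh2-WT controls only (adjusted p = 0.0894 and 0.129). The size of the change depended on the analysis, from 0.59 to 4.88 for *Isl1* and from 0.48 to 2.30 for *Ncam1*.

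The summed level of the neuron list was 2.33, 1.90 and 0.722 RPKM in Tie2-Ezh2-WT replicates 4, 10 and 12 and 1.35 and 1.56 RPKM in Vav-Ezh2-WT replicates 4 and 6. The Tie2-Ezh2-KO replicates 7, 9, 11, 13 and 17 summed to 3.06, 7.76, 5.05, 6.12 and 4.57 RPKM. The sums for Vav-Ezh2-KO replicates 1, 9, 10, 26 and 28 came to 0.536, 1.23, 1.71, 1.02 and 0.441 RPKM. The sum was higher in every Tie2-Ezh2-KO library than in any other, and as with the other separations nothing is read from this. The most abundant gene of the list was *Gap43*, which encodes a growth cone protein, at 1.29 RPKM over all libraries. For Tie2-Ezh2-KO, *Gap43* alone gave 2.95 RPKM of a mean sum of 5.31 RPKM, against 0.716 of 1.57 RPKM for WT. *Gap43* ranged from 0.916 to 5.63 RPKM in Tie2-Ezh2-KO, a change of 1.85 (standard error 0.53, limma adjusted p = 0.0874) that did not pass. Of the defining neuron markers, *Rbfox3* was at 0 in 13 of 15 libraries, *Snap25* in 11 and *Prph* in 10, and none of these 3 exceeded 0.351 RPKM. *Elavl4* was detected in every library, at 0.668 ± 0.242 (SD, n = 5) RPKM in Tie2-Ezh2-KO and 0.486 ± 0.174 RPKM (SD, n = 5) in WT EMPs (limma adjusted p = 0.865), while *Elavl3*, *Syt1* and *Nefl* were not analysed here. The list of 6 neural progenitor and neural crest markers had 3 genes with values, of which 2 were tested and 0 called or under an unadjusted p of 0.05, with a median change of 0.35, and *Nes*, the most abundant, averaged 0.183 RPKM.

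Markers of other cells of the YS were read in the same way. Over all genes tested in Tie2-Ezh2-KO against WT, 2.42% were higher, 43 of 14154 were lower and the median change was 0.011. Of 3 primitive erythroid globin genes 2 were higher, with a median change of 1.18, *Hba-x* by 6.33 (standard error 0.62, limma adjusted p = 8.88e-05) and *Hbb-bh1* by 1.18 (standard error 0.29, limma adjusted p = 0.0441). The Tie2-Ezh2-KO replicates 7, 9, 11, 13 and 17 summed to 309, 585, 855, 192 and 284 RPKM for this list, and the sum was at most 142 RPKM in WT and 155 RPKM in Vav-Ezh2-KO libraries. Of 9 visceral endoderm markers 7 were tested, 1 of which exceeded 0.2 RPKM in Tie2-Ezh2-KO but in no WT library, with a median change of 0.51, from which nothing is read because of that filter. Of the 7, 1 was higher, and this gene, *Amn*, a receptor subunit for the uptake of proteins, rose by 3.01 (standard error 0.45, limma adjusted p = 0.00155). The most abundant gene of that list was *Trf* at 21.6 RPKM, and its sum was highest in Tie2-Ezh2-KO replicate 7 (266 RPKM) and Tie2-Ezh2-WT replicate 4 (192 RPKM), with 10.2 to 34.3 RPKM elsewhere.

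Of 10 megakaryocyte markers, with a median change of -0.22 beside 0.011 for all genes, 1 was lower, beside 43 of 14154 over all genes. This gene, *Gp1ba*, a platelet glycoprotein, fell by 0.94 (standard error 0.24, limma adjusted p = 0.0495). Of 11 endothelium, 4 mesenchyme and 7 macrophage markers tested, 0 were called in Tie2-Ezh2-KO with limma, 4, 0 and 1 had an unadjusted p under 0.05, beside 1552 of 14154 over all genes, and the median changes were 0.38, -0.23 and -0.08. Of the 7 macrophage markers, 2 exceeded 0.2 RPKM in Tie2-Ezh2-KO but in no WT library. Their most abundant genes were *Egfl7* at 113 RPKM, *Pdgfrb* at 1.14 RPKM and *Csf1r* at 4.85 RPKM. The call of *Amn* was kept in all 19 alternatives, that of *Hba-x* in 18 (lost with limma-voom on recovered reads, limma adjusted p = 0.0787), that of *Hbb-bh1* in 8 and that of *Gp1ba* in 6. The change of *Amn* lay between 1.51 and 5.78 in the 19 alternatives. The call of *Hbb-bh1* was lost without any of 8 libraries, all but Tie2-Ezh2-KO replicates 13 and 17 (adjusted p from 0.0535 to 0.101), and that of *Gp1ba* without any of 8, all but Tie2-Ezh2-WT replicate 12 and Tie2-Ezh2-KO replicate 13 (adjusted p from 0.0640 to 0.146). The call of *Hbb-bh1* also ended without a filter on low values, against Tie2-Ezh2-WT alone and with limma-voom (limma adjusted p = 0.114, 0.246 and 0.0852). That of *Gp1ba* ended in these 3 analyses too (limma adjusted p = 0.0802, 0.231 and 0.163), and with a pseudocount of 1 and after scaling to a common median (limma adjusted p = 0.0605 and 0.0723). The part of these cell types in the level of *Tubb3* was not tested.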

How the data were processed

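The 15 RNA-seq libraries of EMPs were grouped by their labels. The authors aligned 75-base single-end reads to GRCm38/mm10 with TopHat2 2.0.13, keeping 1 alignment per read, counted RefSeq genes with featureCounts and deposited RPKM of 17454 genes on a linear scale. Reads were recovered from the steps of the RPKM values: all 16877 genes above 0 came out whole within 0.01 read. The labels and the study's methods differ on the number of cells per replicate, which was not used.

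Contrasts were tested with limma 3.58.1 (lmFit, eBayes with trend) in R 4.3.3 on log2(RPKM + 0.2). A gene was tested if any library of the contrast exceeded 0.2 RPKM, p-values were adjusted over all genes tested by the Benjamini-Hochberg method, and the threshold was 0.05. No test for read counts was run on the deposited values, since their unit is RPKM. For tests, the recovered reads were used only with limma-voom, as an alternative. Shares were tested by two-sided exact permutation. Replicates are individual YS, and p-values measure the spread between them. Windows of 75 bases were matched to GENCODE M21 transcripts on the sense strand through 25-base seeds. The code was tested on simulated data.

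The 10 genes and 14 marker lists were chosen with earlier results of these data known, and rows for *Tubb3*, *Tuba8* and *Tubb6* in the study's supplementary table had been seen. Calls of listed genes are therefore a description. Named by rule were the 10 genes, *Ezh2*, the most abundant gene of each list but 1, the genes of each list past the threshold in Tie2-Ezh2-KO (at most 6), the 8 genes most like *Tubb3* and genes within 100 kb of it. *Rbfox3*, *Snap25*, *Prph* and *Elavl4* are the defining neuron markers with values. *Ttc5* and *Tuba8* are given in addition, chosen after their values were seen. Of 172 listed genes 159 had values, 3 of them under an older symbol, and the other 13 were not analysed here. Alternatives were pseudocounts of 1 and 0.05, other filters, quantile and median scaling, controls of the same Cre line, all libraries in one fit, leaving out each library and, chosen after seeing the data, limma-voom on the recovered reads.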

Additional observations from a re-analysis of the deposited data

Results flagged for a closer look

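Of 60 sets of 5 values, the RPKM and class share of the 10 genes in both knockouts and in WT, 2 held a library far from the others, and chance gives about 1 in 20. The share of *Tubb2a* in the beta total was 2.17% in Vav-Ezh2-KO replicate 9, against 1.38% to 1.53% in the other Vav-Ezh2-KO libraries. The share of *Tubb2b* was 0.135% in Tie2-Ezh2-KO replicate 9, against 0.302% to 0.357% in the other Tie2-Ezh2-KO libraries.

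The effects of the 2 knockouts, each against the controls of its own cross, differed for 26 of 14394 genes tested as an interaction with limma. Among the genes of the marker lists this held for *Hba-x*, whose change was larger by 6.41 on the log2 scale in Tie2-Ezh2-KO (limma adjusted p = 0.0457).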

How the results depend on the processing

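The count of genes called in Tie2-Ezh2-KO was 386 and stayed within 1.5 times of that in all alternatives but one: with WT libraries of the same Cre line only it was 187. It was 564 after scaling to a common median and 262 to 438 when single libraries were left out. The count in Vav-Ezh2-KO was 1, 2 with controls of the same Cre line, 0 with limma-voom on recovered reads and 1 to 2 when single libraries were left out. Between the controls it was 2, but 1 with a pseudocount of 1, 4 without a filter on low values, 1 after scaling to a common median, 0 with limma-voom and 0 to 8 when single libraries were left out, lowest without Tie2-Ezh2-WT replicate 4 and highest without Vav-Ezh2-WT replicate 4 or Vav-Ezh2-KO replicate 28. Why these counts moved was not tested.

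*Tubb3* kept its direction and stayed short of the threshold in all 19 alternatives for Vav-Ezh2-KO (-1.43 to -0.28) and all 22 for the controls (0.76 to 1.93). Other tubulins turned sign with neither value past the threshold, and the cause was not tested. In Vav-Ezh2-KO, where *Tubb2b*, *Tubb4a*, *Tubb5*, *Tuba1a*, *Tuba1b* and *Tuba1c* changed by 0.03, -0.30, 0.00, 0.20, 0.17 and 0.22, *Tubb5* was -0.14 with quantile normalization, and with Vav-Ezh2-WT controls only *Tubb2b*, *Tuba1a*, *Tuba1b* and *Tuba1c* were -0.11, -0.05, -0.07 and -0.09. Leaving out single libraries gave -0.12 to 0.10 for *Tubb2b*, -0.61 to 0.04 for *Tubb4a* and -0.14 to 0.12 for *Tubb5*. Between the controls *Tubb5* was 0.07 with limma-voom, and leaving out single libraries gave -0.10 to 0.21 for *Tubb2a*, -0.02 to 0.43 for *Tubb2b*, -0.29 to 0.24 for *Tubb5* and -0.28 to 0.20 for *Tubb6*.

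For class shares, leaving out 1 library gives 126 divisions and a smallest exact p of 0.00794, and Vav-Ezh2-WT controls only give 21 divisions and 0.0476, or 0.127 and 0.762 for 1 isotype alone after adjustment over 16, so the adjusted p in these alternatives says nothing about stability. With Vav-Ezh2-WT controls only, the differences of *Tubb2b*, *Tubb5* and *Tuba1c* were -0.0177, 0.768 and -0.264 percentage points. Leaving out single libraries gave -0.0555 to 0.149 for *Tubb2a*, -0.0199 to 0.0196 for *Tubb2b*, -0.0331 to 0.00361 for *Tubb4a*, -2.27 to 1.54 for *Tubb5* and -0.0224 to 0.301 for *Tuba1a*. The difference of *Tubb3* lay between -0.0524 and -0.0232 points when single libraries were left out and reached -0.0851 points over all alternatives. That of *Tubb4b* lay between 2.53 and 6.01 points over all alternatives. The *Ezh2* call in Tie2-Ezh2-KO was lost in 10 of 19 alternatives, 7 of them without 1 library (limma adjusted p from 0.0760 to 0.126) and 3 with another setting (limma adjusted p from 0.0817 to 0.344). Depth limits *Tubb3* and *Tubb4a*, which rest on as few as 3 reads in a library. No paired analysis was run, because each library is an individual YS and the labels do not assign libraries to experiments.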
